A study of Drosophila melanogaster with 6 samples.

Results

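In leg discs of Drosophila melanogaster at 0 h APF (after puparium formation), 44 genes that were known to the annotation only by a CG number had lower FPKM in GFP+ tendon precursors than in input cells. A CG number is the systematic identifier of a predicted protein-coding gene, kept until someone studies the gene and names it. The 44 genes were selected on the 2 group values: an input FPKM of at least 10, and an input FPKM at least 2.5 times the GFP+ FPKM. FPKM is the number of sequenced fragments per kilobase of transcript, scaled to the mapped fragments of the library, so levels of different genes can be compared per length. The 44 genes came from 7337 unnamed genes in a table of 17411 genes, and from 2175 unnamed genes that reached the input level of 10.

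Both groups came from white pupae of the genotype given in the labels as sr-gal4>UASGFP, in which the sr-gal4 driver, an insertion in stripe (sr), switches on GFP. The study's methods give the stock as UAS-Lifeactin.GFP; sr-gal4/TM6b, tb, so both groups carried the driver, the GFP transgene and the balancer. Discs of many pupae were pooled, dissociated with collagenase and papain and sorted, once without regard to fluorescence (the input, called control in the labels) and once for GFP (GFP+), with 3 libraries per group. GFP marks cells in which the driver is active, the input still holds those cells, and there was no sort for GFP-negative cells. The deposited FPKM is 1 value per group with confidence bounds, not 1 per library. The bounds, whose level is not stated, are the only measure of uncertainty here. How far they reflect the spread between libraries is not known.

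The gene sr encodes the zinc finger factor that sets tendon fate in Drosophila. In the leg, clusters of sr-expressing epithelial cells of the disc leave the surface, invaginate and form the long internal tendons to which leg muscles attach. The rest of the disc is epithelium patterned along the leg axes, together with myoblasts, some neurons and glia, and tracheal cells, and all of these contribute RNA to the input.

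Because the contrast between GFP+ and input chose the genes, their ratios are a description and carry no test. By the same rule 2.02% of the unnamed genes with an input FPKM of 10 or more were low in GFP+ cells, and 265 of 3878 named genes (6.83%) were. The mirrored rule, with the groups exchanged, found 73 unnamed genes that were high in GFP+ cells. In bulk samples such as these, fewer cells of a type and less RNA per cell cannot be told apart.

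**Figure D1:**
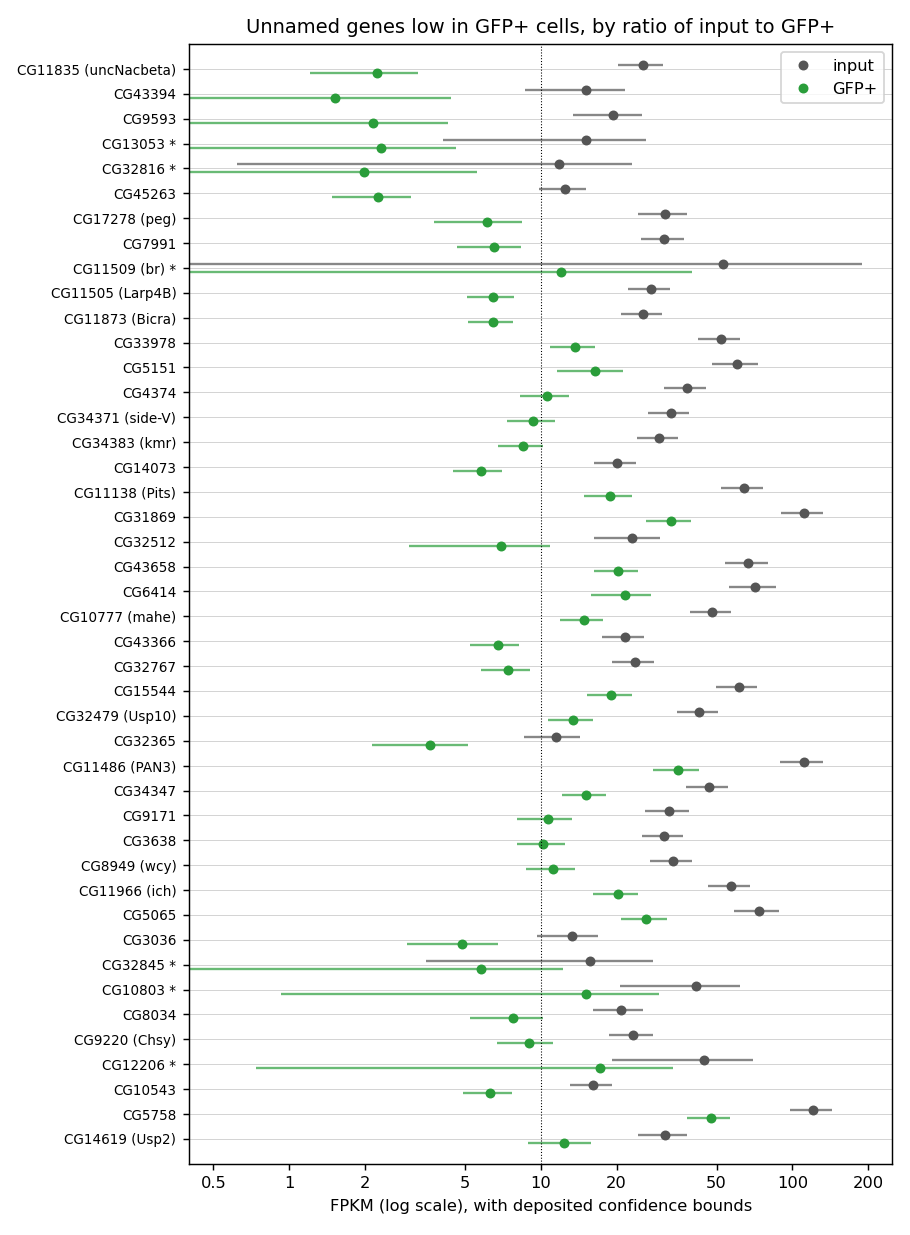
FPKM on a log axis for each of the 44 genes, ordered by the ratio of input to GFP+ FPKM, with the name now in use in brackets. Grey points are the input and green points GFP+, lines are the deposited confidence bounds, lines that reach the left edge go on to or toward 0, the dotted line marks an FPKM of 10, and an asterisk marks the 6 genes whose bounds overlap between the groups.

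The ratio of input to GFP+ FPKM ran from 2.51 to 11.4, with a median of 3.26, which is a median log2 ratio of GFP+ to input of -1.70. Over the other 2131 unnamed genes at this level the median log2 ratio was 0.08. The ratio was 5 or more for 7 genes, between 3 and 5 for 25 and under 3 for 12. None of the 44 was at 0 in GFP+ cells. The lowest GFP+ level was 1.53 FPKM, and 22 of the 44 were still at 10 FPKM or more there. Summed over the 44 genes, FPKM was 1758 in the input and 535 in GFP+ cells. The bounds of the 2 groups did not overlap for 38 of the 44 genes. Over all 2175 unnamed genes the same was true, in that direction, of 10.5%, and since the ratio chose the genes, nothing is read from the difference.

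The largest ratio belonged to CG11835, now uncNacbeta, which is named for its likeness to the beta subunit of the nascent polypeptide-associated complex, a partner of new chains at the ribosome. It lies on chromosome 2L from 560568 to 563819 on the minus strand (dm6). Its input FPKM was 25.5 (bounds 20.3 to 30.7) and its GFP+ FPKM 2.23 (bounds 1.21 to 3.25), a ratio of 11.4 with a wide gap between the bounds. CG43394, on 2L from 8145758 to 8158786, had 15.2 FPKM in the input (8.67 to 21.6) and 1.53 in GFP+ cells (0 to 4.40). Its ratio of 9.93 thus rests on a GFP+ value whose lower bound is 0. CG9593, on 3R from 15802275 to 15803653, had 19.4 FPKM in the input (13.4 to 25.4) and 2.16 in GFP+ cells (0.06 to 4.27). CG9593 shares exon sequence with the antisense RNA CR45891, which had 10.5 FPKM in the input and 2.22 in GFP+ cells, and unless strand was used in counting, which is not stated, the reads of the pair cannot be told apart.

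CG45263 spans 113290 bases of 3R and had 12.5 FPKM in the input (9.87 to 15.1) against 2.26 in GFP+ cells (1.48 to 3.04). It was among the lowest of the 44 in the input and still had bounds that lay far apart. CG7991, on 3L, had 31.0 FPKM in the input (25.1 to 37.0) and 6.50 in GFP+ cells (4.66 to 8.33). The other 2 genes with a ratio above 5 and no current name, CG13053 and CG32816, had bounds that overlapped. CG13053, with a median transcript of 489 nucleotides the shortest of the 44, had 15.2 FPKM in the input (4.07 to 26.3) and 2.32 in GFP+ cells (0.03 to 4.61). CG32816, whose annotated span of 154151 bases on X overlaps 14 other annotated genes, had 11.8 FPKM in the input (0.62 to 22.9) and 1.98 in GFP+ cells (0 to 5.56).

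Of the 44 genes, 15 now go by a name, and 29 are still known by a CG number in the Ensembl 115 annotation. The 15 include CG11509, which RefSeq gives as a synonym of br, a gene with its own FPKM. The named ones cover several kinds of protein. The first 4 are a secreted protein, a cell surface protein, a planar polarity protein and an enzyme of proteoglycan synthesis. CG17278, now peg, encodes a small secreted protein with a Kazal domain that widens the range of Wingless signalling in Drosophila wing discs, and it had 31.2 FPKM in the input (24.3 to 38.1) and 6.09 in GFP+ cells (3.77 to 8.42). CG34371, now side-V, belongs to the Sidestep family of immunoglobulin proteins, receptors for Beat proteins that guide axons. Its FPKM was 32.8 in the input (26.7 to 39.0) and 9.34 in GFP+ cells (7.31 to 11.4). CG34383, now kmr, encodes a pleckstrin homology protein of planar cell polarity, the orthologue of human PLEKHA4, and had 29.6 FPKM in the input (24.0 to 35.2) and 8.49 in GFP+ cells (6.75 to 10.2). CG9220, now Chsy, encodes a chondroitin sulfate synthase and was nearer to the threshold, at 23.3 FPKM (18.6 to 28.1) against 8.94 (6.70 to 11.2). For these 4 genes the bounds did not overlap, and the ratio went from 5.12 for peg to 2.61 for Chsy.

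A further group acts on RNA. CG11486, now PAN3, encodes the partner of the PAN2 deadenylase, which shortens poly(A) tails. PAN3 was among the most abundant of the 44, with 111 FPKM in the input (89.3 to 132) and 35.2 in GFP+ cells (28.0 to 42.4). CG11505, now Larp4B, is a La-related RNA-binding protein, with 27.4 FPKM in the input (22.3 to 32.5) and 6.46 in GFP+ cells (5.09 to 7.84). CG10777, now mahe, is a DEAD-box RNA helicase, with 47.9 FPKM in the input (39.0 to 56.9) and 14.8 in GFP+ cells (11.9 to 17.7). The ratios of the 3 RNA regulators were 3.15, 4.24 and 3.23, and the bounds did not overlap for any of them.

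The deubiquitinases CG32479, now Usp10, and CG14619, now Usp2, remove ubiquitin from proteins. Usp10 had 42.7 FPKM in the input (34.7 to 50.7) and 13.4 in GFP+ cells (10.7 to 16.1). Usp2 was the gene nearest to the ratio threshold, with 31.1 FPKM (24.3 to 37.99) against 12.4 (8.88 to 15.9) and a ratio of 2.51, and its exons overlap those of CG14613 on the other strand, which had 22.5 FPKM in the input and 20.3 in GFP+ cells.

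Nuclear proteins were the next kind. CG11873, now Bicra, corresponds to human BICRA, a subunit of a chromatin remodelling complex built around the BRM type of ATPase. Bicra had 25.6 FPKM in the input (20.9 to 30.3) and 6.46 in GFP+ cells (5.15 to 7.76). CG11138, now Pits, is a partner of the transcriptional repressors Ttk69 and Sin3A, with 64.2 FPKM in the input (52.2 to 76.2) and 18.9 in GFP+ cells (14.8 to 23.0). CG11966, now ich, is a zinc finger factor known from the apical matrix of tracheal tubes, and had 57.0 FPKM in the input (46.4 to 67.6) and 20.3 in GFP+ cells (16.1 to 24.4). The bounds of all 3 lay apart, and ich, with a ratio of 2.81, still had a GFP+ level of over 10 FPKM. CG8949, now wcy, had 33.6 FPKM in the input (27.2 to 40.0) and 11.2 in GFP+ cells (8.77 to 13.7).

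CG11509 is listed as a gene of its own in the FPKM table, but RefSeq now gives its identifier as a synonym of broad (br), an early gene of the ecdysone response that encodes zinc finger factors. Its own FPKM of 52.9 in the input and 12.02 in GFP+ cells had bounds that start at 0 in both groups. The row of br in the same table had 419 FPKM in the input (306 to 533) and 132 in GFP+ cells (102 to 162), a ratio of 3.18. CG11509 therefore does not stand as a gene separate from br in the present annotation. Of the 44 identifiers, 42 were found in Ensembl 115, and CG11966 was matched through its RefSeq synonym to ich, which leaves 43 genes with a gene model of their own.

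Among genes still without a name, the most abundant in the input were CG5758 and CG31869, both on 2L. CG5758 had 120 FPKM in the input (97.6 to 143) and 47.3 in GFP+ cells (38.02 to 56.7), the highest of the 44 in either group. CG31869 had 111 FPKM in the input (90.3 to 132) and 32.9 in GFP+ cells (26.3 to 39.5). Both remained well above 10 FPKM in GFP+ cells, CG5758 with one of the smallest ratios, 2.54, and CG31869 with 3.39. CG5065, to which RefSeq gives the name of a fatty acyl-CoA reductase as a synonym, had 73.5 FPKM in the input (58.7 to 88.4) and 26.2 in GFP+ cells (20.8 to 31.6). CG43658, on X, had 66.9 FPKM in the input (53.9 to 79.9) and 20.3 in GFP+ cells (16.3 to 24.3). CG15544, near the tip of 3R, had 61.1 FPKM in the input (49.7 to 72.6) and 19.1 in GFP+ cells (15.2 to 23.0). The bounds did not overlap for any of these 5 genes.

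Other unnamed genes with ratios between 3 and 4 had moderate levels in the input. CG33978, the only one of the 44 on chromosome 4, had 52.0 FPKM in the input (42.2 to 61.8) and 13.6 in GFP+ cells (10.9 to 16.4). CG5151 had 60.5 FPKM (47.9 to 73.1) against 16.4 (11.6 to 21.2), and CG4374 had 38.1 FPKM (30.9 to 45.2) against 10.6 (8.25 to 12.96). The bounds of all 3 lay apart. CG3638, which RefSeq gives the synonym TTYH2 of the tweety family of membrane proteins, had 31.0 FPKM in the input (25.2 to 36.8) and 10.2 in GFP+ cells (8.07 to 12.4). The genes not described singly are CG14073, CG32512, CG43366, CG32767, CG34347, CG9171, CG3036 and CG8034, with ratios between 2.69 and 3.48 and bounds that did not overlap.

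The thresholds cut through a continuous range. Just inside the ratio of 2.5 were Usp2 at 2.51, CG5758 at 2.54 and CG10543 at 2.57, and just outside it were CG1607 at 2.499 (148 FPKM in the input, 59.0 in GFP+ cells), CG33298 at 2.45 and CG43736 at 2.44. Just inside the input level were CG32365 at 11.5 FPKM, CG32816 at 11.8 and CG45263 at 12.5, and just outside it were CG2150 at 9.54, CG1674 at 8.30 and CG9896 at 8.08 FPKM. Of these 6 genes just outside, only CG9896 had bounds that overlapped.

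The 44 genes differed from other unnamed genes in their structure, which the selection did not use. They were long. The median transcript length of the 43 annotated genes was 3992 nucleotides, against 1696 nucleotides for the other 2095 annotated unnamed genes with an input FPKM of 10 or more. Of the 43 genes, 21 (48.8%) had a transcript of at least 4000 nucleotides, against 10.2% of all unnamed genes at that level, and 13 had at least 6000. Their coding sequence had a median of 2316 nucleotides against 1182, and the rest of the transcript a median of 1438 against 414. The annotated span had a median of 14344 bases against 2330, introns made up a median of 64.3% of it against 14.1%, and the largest number of exons in a transcript had a median of 6 against 4. None of these measures was compared between genes of similar transcript length, so they are not shown to be traits apart from length. Named genes that were low by the same rule were long too, with a median transcript of 3425 nucleotides and a median span of 13910 bases. The 73 unnamed genes high in GFP+ cells were not, with a median transcript of 1605 nucleotides.

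**Figure D2:**
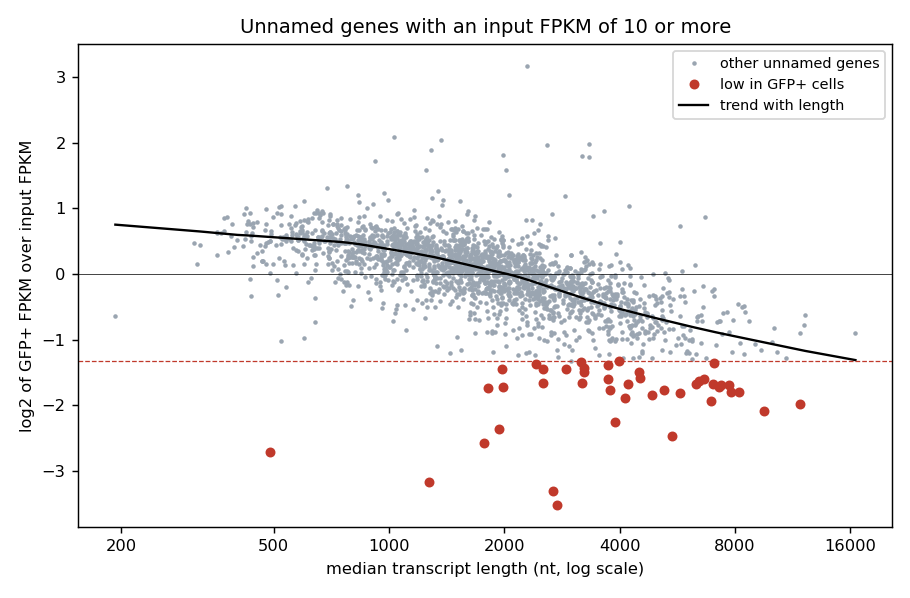
Log2 of the ratio of GFP+ to input FPKM against median transcript length (log axis) for the unnamed genes with an input FPKM of 10 or more, with the genes low in GFP+ cells in red. The black line is the trend over all genes and the dashed line the ratio of 2.5, and the trend itself goes down with length, from above 0 for transcripts under 2000 nucleotides to below 0 for longer ones.

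Length, however, moved with the ratio over unnamed genes in general. Over 2138 annotated unnamed genes with an input FPKM of 10 or more, the log2 ratio of GFP+ to input and the log10 transcript length had a Pearson r of -0.63 and a Spearman rho of -0.69, across genes that share the same libraries. The median log2 ratio was 0.47 for transcripts under 1000 nucleotides, 0.20 for 1000 to 2000, -0.21 for 2000 to 4000, -0.63 for 4000 to 6000 and -0.91 for 6000 or more. Named genes followed almost the same course, from 0.48 to -0.99. The share of unnamed genes past the fold went from 1 of 422 (0.237%) in the shortest class through 6 of 861 (0.697%), 15 of 636 (2.36%) and 8 of 157 (5.10%) to 13 of 62 (21.0%) in the longest. In named genes the share was 64 of 735 (8.71%) in the shortest class, then 11 of 1007 (1.09%), 75 of 1313 (5.71%) and 48 of 456 (10.5%). These shares were all above those of unnamed genes of the same class. In the longest class it was 56 of 247 (22.7%), close to that of unnamed genes. The named set holds non-coding RNA genes, 65 of the 254 annotated ones that were low in GFP+ cells, while the 43 unnamed ones are all protein-coding. The part of transcript length, or of RNA quality that acts through it, in the lower FPKM of the 44 genes was not tested.

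**Figure D3:**
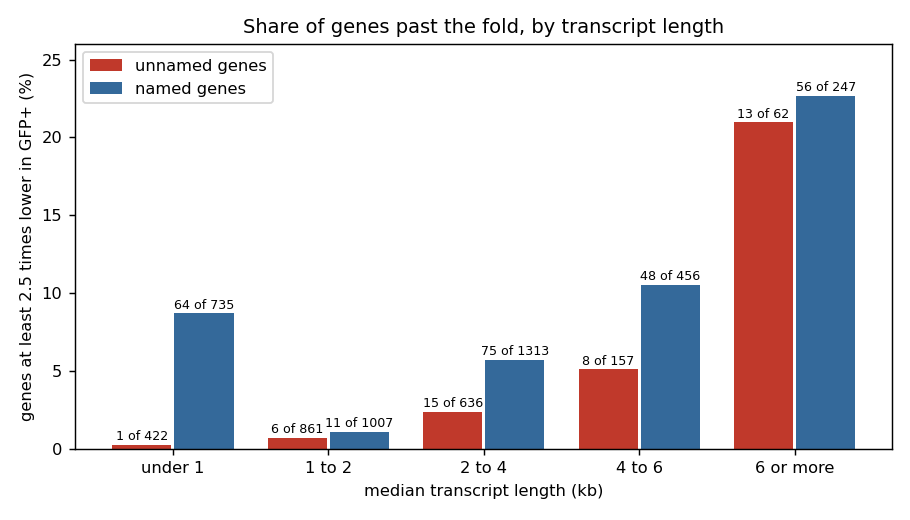
Percent of genes with an input FPKM of 10 or more that were at least 2.5 times lower in GFP+ cells, by class of median transcript length, for unnamed (red) and named (blue) genes, with the number of genes above each bar. In unnamed genes the share goes from 0.237% under 1 kb to 21.0% at 6 kb or more.

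When the trend with length was taken off each gene's log2 ratio, the 43 genes had a median of -1.11. All 43 were below 0, but the choice of genes had fixed this, so nothing is read from it. The lowest trend value among them was -1.155, for Bicra, a smaller step than the 2.5-fold the rule required. The highest log2 ratio as deposited was -1.33, for Usp2. With the trend taken off, 13 genes were still past 2.5-fold, a count made on the ratio that had chosen them. These 13 were uncNacbeta, CG43394, CG9593, CG13053, CG32816, CG45263, peg, CG7991, CG5151, CG32512, CG6414, CG32365 and CG32845. Of the 13, CG13053, CG32816 and CG32845 had bounds that overlapped, and CG6414 had a mean count of 0 in a second quantification given below. All 7 genes with a ratio of 5 or more were among the 13. The lowest trend value of the 7 was only -0.73, for CG45263, so nothing is read from this. Those 7 genes were short by comparison, with a median transcript of 1934 nucleotides, and 6 of the 7 had transcripts under 3000. The 24 annotated genes with a ratio of 3 to 5 had a median transcript of 6053 nucleotides, and 5 of them stayed past the fold. The 12 genes with a ratio under 3 had a median of 3229 nucleotides, and 1 of them stayed past the fold. Over the 43 genes, chosen on the ratio, transcript length and the log2 ratio had a Pearson r of 0.34 and a Spearman rho of -0.002. The strongest ratios were also at low levels, with a median of 15.2 FPKM in the input and 2.23 in GFP+ cells, against 38.1 and 10.7 FPKM for the genes with a ratio of 3 to 5. Of the long genes, Bicra, with the longest median transcript of the 44 at 11806 nucleotides, had a log2 ratio of -1.99 as deposited and -0.83 with the trend taken off. Larp4B, with 9523 nucleotides, had -2.08 and -1.04. For peg, with 1934 nucleotides, the values were -2.36 and -2.39.

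The X chromosome held 14 of the 43 genes (32.6%), against 19.7% of all unnamed genes with an input FPKM of 10 or more, 19.3% of the named genes low by the same rule and 17.8% of the unnamed genes high in GFP+ cells. On 3L and 3R there were 9 each, on 2L 6 and on 2R 4. Past the fold were 14 of 421 unnamed genes on X (3.33%) and 29 of 1717 on the autosomes (1.69%). Among unnamed genes with transcripts of 2000 nucleotides or longer, the shares were 11 of 196 (5.61%) and 25 of 659 (3.79%). Among named genes of any length they were 7.79% and 6.55%, and among those of 2000 nucleotides or longer 9.63% and 8.71%. The median log2 ratio of all unnamed genes was 0.03 on X and 0.09 on the autosomes. The difference in shares rests on 14 genes, of which CG32816, CG10803 and CG12206 had bounds that overlapped between the groups. It was not tested, since the contrast had chosen the genes.

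The genes were scattered, and their neighbours were mostly not low. Of the 86 nearest genes with an input FPKM of 10 or more on either side, 5 (5.81%) were past the fold, against 188 of 4188 (4.49%) for the other unnamed genes. The 5 were CR45891 beside CG9593, dm beside CG12206, sog beside Chsy, ovo beside CG32767 and mir-4987 beside CG31869. The gene sog, an inhibitor of Dpp signalling, had 54.6 FPKM in the input and 8.33 in GFP+ cells, and ovo, a zinc finger factor, had 52.6 and 17.0. Only one pair of the 44 had starts within 20 kb of each other, CG12206 and CG10803 on X, 11126 bases apart on opposite strands. CG12206 had 44.5 FPKM in the input (19.2 to 69.8) and 17.2 in GFP+ cells (0.74 to 33.7), and CG10803 had 41.3 (20.6 to 62.1) and 15.2 (0.93 to 29.4). Both have wide bounds that overlap. In the FPKM table both belong to one long locus that also holds the Myc gene dm, at 54.2 FPKM in the input and 9.26 in GFP+ cells, and CR34335, a non-coding RNA at 5359 FPKM in the input and 14036 in GFP+ cells.

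Many of the genes share their locus with others, as do unnamed genes at this level in general. Of the 44 genes, 26 (59.1%) share a locus of the FPKM file with at least 1 other gene and 18 stand alone. The share was 52.1% over all unnamed genes with an input FPKM of 10 or more. It was 61.5% over the named genes low by the same rule. Bounds did not overlap for 17 of the 18 that stand alone, and 5 of the 6 genes with overlapping bounds were in shared loci, the exception being CG13053. In the annotation 25 of 43 genes overlapped another gene (58.1%), against 53.2% of the other unnamed genes, but only 8 (18.6%) did so by exons, against 46.9%. The exon overlaps included 4 antisense RNAs, whose ratios were past 2.5 but whose bounds overlapped between the groups. CR45891, against CG9593, had bounds of 2.55 to 18.5 in the input and 0 to 6.74 in GFP+ cells. CR45198, against CG33978, had 3.87 FPKM in the input (0 to 19.8) and 0.91 in GFP+ cells (0 to 3.95). CR45481, against CG6414, had 7.73 (2.92 to 12.5) and 1.72 (0.10 to 3.33), and CR31912, against CG9171, had 4.19 (0 to 8.49) and 0.59 (0 to 2.25). Each antisense RNA was below its partner in the input, and CR45891 and CR31912 had a mean normalized count of 0. CG32845 lies on the strand opposite miple2, a gene with 376 FPKM in the input and 258 in GFP+ cells, and its own 15.7 FPKM in the input (3.50 to 27.9) and 5.76 in GFP+ cells (0 to 12.3) had bounds that overlapped.

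A second quantification gave the overall level but not the contrast. The mean normalized count over all 6 libraries was 28.4 per kb of transcript for each unit of mean FPKM over the expressed genes, and 42 of the 43 annotated genes lay within 4 times of that. Over all 5896 genes compared, 418 did not. The exception was CG6414, with 71.2 FPKM in the input (56.2 to 86.2) and 21.7 in GFP+ cells (15.9 to 27.4) and a mean normalized count of 0. Its exons overlap CR45481, and it was 1 of 58 annotated unnamed genes at this level with a count of 0. The lowest counts after CG6414 were 40.4 for CG13053 and 149 for CG9593, and the highest was 11912 for CG43658. Together the 44 genes made up 0.515% of all mean normalized counts.

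**Figure D4:**
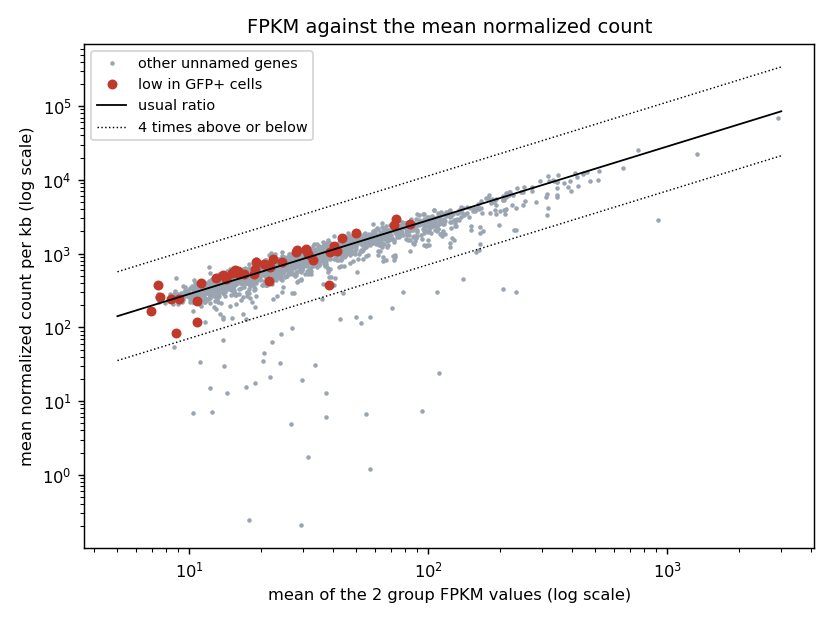
Mean normalized count per kb of transcript against the mean FPKM of the 2 groups, both on log axes, for the unnamed genes with an input FPKM of 10 or more and a count above 0. The genes low in GFP+ cells (red) lie between the dotted lines, which mark 4 times above and below the usual ratio, and CG6414, with a count of 0, is not drawn.

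Markers of the cells in the disc showed what else differed between the sorted groups. The 5 tendon markers (sr, Tsp, Lrt, drm and dar1) summed to 881 FPKM in GFP+ cells and 182 in the input, and their bounds were apart for all 5. The 8 myoblast markers summed to 17.9 FPKM in GFP+ cells and 169 in the input, with 7 of 8 lower by the bounds, a median ratio of 11.0 and none at 0. The 8 genes listed for leg epithelium outside the tendons (Dll, dac, hth, tsh, al, bab2, fj and bib) summed to 241 FPKM in GFP+ cells and 779 in the input. All 8 were lower by the bounds, with a median ratio of 2.92, and all remained above 10 FPKM in GFP+ cells. The values thus do not show that these genes are confined to cells outside the tendons. Of 5 tracheal markers, 4 were measured, and 3 of these were lower by the bounds, with sums of 23.8 and 67.3 FPKM. The sums came mostly from vvl, at 15.6 FPKM in GFP+ cells and 40.0 in the input, and trh, at 7.77 and 24.2. By contrast, bnl was at 0.31 and 2.40 FPKM, and btl at 0.09 and 0.68 with bounds that overlapped. Of 4 genes that mark parts of the disc epithelium, the posterior genes hh and en were lower by the bounds, at 17.5 and 14.0 FPKM in GFP+ cells and 52.3 and 41.7 in the input. The anterior gene ci was also lower, at 84.4 against 140 FPKM, and the bounds of the ventral gene wg, at 66.0 against 58.8, overlapped.

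The 6 neuronal markers summed to 35.6 FPKM in GFP+ cells and 40.9 in the input, but by the bounds nSyb and Syt1 were higher in GFP+ cells and fne and scrt lower. The 6 glial markers summed to 131 and 113 FPKM, nearly all of it from nrv2, at 127 and 103. Of the other 5, wrapper was lower by the bounds, at 0.34 FPKM in GFP+ cells and 5.17 in the input, and repo, which defines most glia, was at 0.65 and 1.70 with bounds that overlapped. Hemocyte markers were near 0 in both groups, at 1.41 and 2.62 FPKM, with eater at 0 in GFP+ cells. Fat body markers summed to 27.5 FPKM in GFP+ cells and 0.33 in the input, but only 2 of the 6 were higher by the bounds. Fbp2 and Lsp2, the largest at 11.4 and 9.62 FPKM in GFP+ cells, had lower bounds of 0 there. The 5 heat shock genes listed as signs of dissociation stress summed to 12210 and 7740 FPKM. Most of both sums came from Hsp23 and Hsp26, whose bounds overlapped between the groups. By the bounds, Hsp68 and Hsp70Bb alone were higher in GFP+ cells. The part of each of these cell types in the lower FPKM of the 44 genes was not tested.

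**Figure D5:**
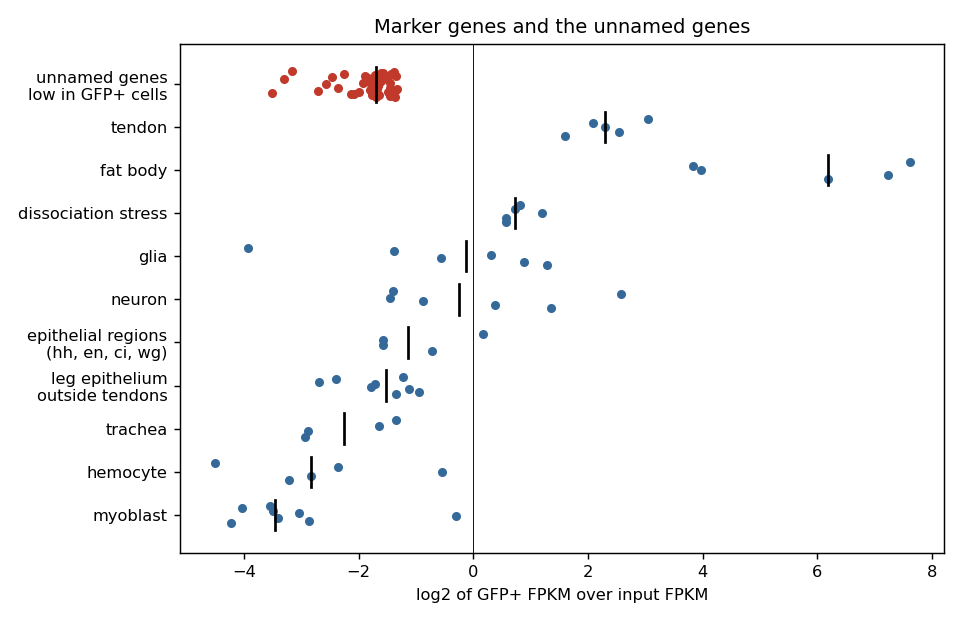
Log2 of the ratio of GFP+ to input FPKM for the 44 unnamed genes (red) and for the genes of each marker list (blue), 1 point per gene, with the median of each row as a black bar. Genes listed at 0 in a group are not drawn, and the red points, chosen to be below -1.32, sit around a median of -1.70.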

How the data were processed

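Per the submitters' processing notes and the study's methods, single-end libraries primed with oligo-dT were quality-trimmed (Trimmomatic 0.32), mapped to the dm6 assembly (Bowtie2 2.1.0) and quantified (Cufflinks 2.2.1, DESeq2 1.2.8). The annotation release and the use of strand in counting are not given in the sources used here. The authors deposited FPKM as 1 value for each group, with a lower and an upper confidence bound. A signal value, each gene's mean of size-factor normalized counts over the 6 libraries, was made by the authors with DESeq2 and deposited in a second table. Its remaining columns hold the authors' own comparison (fold change, standard error, statistic, p-value, adjusted p-value and threshold flags) and were not used. Depth per library is unknown from these values. 

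Both tables were joined by gene identifier. Ratios of FPKM were computed with no pseudocount, and bounds were called apart when the input's lower bound exceeded the upper bound in GFP+ cells. No test was run, since the values are per group and the contrast chose the genes. Gene models came from the Ensembl 115 annotation (transposable elements left out of overlaps) and names also from RefSeq. Length is the median over a gene's transcripts. The length trend was a lowess (span 0.3, statsmodels 0.14.6) over genes with an FPKM of 10 or more in either group, tested on simulated data. Python 3.11.15, pandas 2.3.3, numpy 2.4.6 and matplotlib 3.10.9 were used. The genes and marker lists were chosen with earlier results of these data known. Genes described singly were the 12 largest ratios with bounds apart, the 8 highest inputs, those nearest the thresholds and close pairs. Genes whose count disagreed with FPKM and genes that now go by a name were also described singly. CG13053, CG3638, CG32816, CG32845, the overlapping RNAs, miple2, CG14613, br, CR34335 and the neighbours past the fold were singled out after their values were seen. Protein features were not analysed here.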

Additional observations from a re-analysis of the deposited data

How the results depend on the processing

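The number of genes was 44 as reported. It became 1098 with no minimum FPKM and 103 at a ratio of 2 or more. With the length trend removed it was 19, of which 13 were among the 44. It was 29 when genes that now go by a name were left out. The number with bounds apart was 38 as reported and became 66, 94, 13 (10 among the 38) and 24 under the same settings. The median log2 ratio of -1.70 became -1.11 with the length trend removed. Within 1.5 times of the reported counts were an input minimum of 5 or 20 FPKM (65 and 35 genes), a ratio of 3 (32), a pseudocount of 1 FPKM (37), centring on the median of all genes (43, with a shift of -0.02 on the log2 scale), status OK in both groups (44) and, chosen after seeing the data, agreement with the mean normalized count (42). The median log2 ratio stayed between -1.63 and -1.71 under the other settings. Genes overlapping another gene numbered 25, or 8 by exons alone, and the single close pair was lost at 10 kb and kept at 50 kb. No paired analysis was possible because the deposited values are 1 per group, and for the same reason no library could be left out in turn. Of the 44 genes, 4 had a lower bound of 0 in GFP+ cells, all 4 in loci shared with other genes, and depth per library is unknown.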
